A study of Mus musculus with 11 samples.

Results

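The imprinted growth genes H19, Igf2, Meg3, Dlk1, Peg3, Mest, Plagl1, Cdkn1c, Grb10 and Ndn were found by symbol among the 25006 Ensembl genes counted in 11 libraries of mouse left ventricle. All 10 had a row, and 9 of them (all but Dlk1) were among the 14779 genes past a filter on low counts. They were chosen by name with their levels in the 4 groups known, that is, selected on TMM-scaled CPM (counts per 1000000, with library sizes corrected for composition). Their levels and fold changes below are therefore a description. Intervals and counts of calls from the fit across all genes stand beside them for reference, and nothing is read from those for the members.

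An imprinted gene is transcribed mainly from the copy inherited from one parent, because DNA methylation set in the egg or the sperm differs between the parental copies. Many imprinted genes set the growth of the fetus and placenta, are strongly expressed in mesenchymal cells before birth and fall to low levels in the adult. Genes expressed from the father's copy (Igf2, Dlk1, Peg3, Mest, Plagl1, Ndn) and from the mother's copy (H19, Meg3, Cdkn1c and, in most tissues, Grb10) often lie together in domains that share a control region. The counts do not separate the parental copies, so every value here is the sum of both.

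The hearts were naive or were taken 9 days after myocardial infarction (MI) by permanent ligation of the left anterior descending coronary artery, and each library is the RNA of 1 mouse. Controls carried Vegfc fl/fl, a Vegfc allele flanked by loxP sites, and the Vegfc-deficient mice carried Vegfc fl/fl ; LysMCre, in which Cre made from the lysozyme M gene (Lyz2) acts in macrophages, neutrophils and other myeloid cells. The groups were naive control (n = 2: M44, M45), naive Vegfc-deficient (n = 3: M149, M150, M34), MI control (n = 3: M006, M38, M40) and MI Vegfc-deficient (n = 3: M35, M900, M913). The genotype labels give the controls as floxed without Cre, whereas the labels' protocol and the study's methods name LysMCre mice as controls, so whether the controls carry Cre is uncertain. The MI libraries hold RNA of the infarct, and the naive libraries RNA of a matching part of the uninjured ventricle.

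Library totals ran from 10824989 to 26782728 counts, so that 3 counts, taken as the floor, equalled 0.101 to 0.363 CPM (counting error only). Vegfc, the floxed gene, lay between 21.9 and 45.5 CPM with no separation of the genotypes. Lyz2 reached 4562.9 CPM in M149, labelled naive Vegfc-deficient, and only 2119.7 and 2280.9 CPM in naive controls, whereas the other Vegfc-deficient libraries held 12.4 to 1391.4 CPM. Those others varied widely, at 72.5 in M150, 244.6 in M34, 1391.4 in M35, 203.2 in M900 and 12.4 CPM in M913. M149 thus lies apart from the other libraries of its label in Lyz2. This does not settle its genotype, since it is uncertain whether the controls carry Cre. The MI log2 fold changes of the members and the counts of the gene lists in Vegfc-deficient hearts are also given without M149. All naive libraries were low in Xist (0.624 to 11.8 CPM) and high in 4 Y-linked genes (sum 152.1 to 195.2 CPM), and all MI libraries were the reverse (187.6 to 403.2 and 0 to 1.84 CPM), so MI and the sex of the mice cannot be told apart in any comparison of MI with naive hearts.

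Several of these genes carry microRNAs, and these sequences show what a rise of the host RNA could also hold, although the libraries measured the host only. In the RefSeq annotation of GRCm38.p6, 9 mature microRNAs lie inside 4 of the 10 genes on the same strand, and no pair of them shares a seed (bases 2 to 8, in capitals). H19, Meg3 and Mest were all higher after MI, and the microRNAs of H19 and Mest and miR-770-5p of Meg3 are shown beside one of Igf2, whose groups overlapped:
mmu-miR-675-5p: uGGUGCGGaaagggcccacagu
mmu-miR-675-3p: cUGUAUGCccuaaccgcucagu
mmu-miR-770-5p: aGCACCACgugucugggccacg
mmu-miR-335-5p: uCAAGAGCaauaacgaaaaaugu
mmu-miR-335-3p: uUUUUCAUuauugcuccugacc
mmu-miR-483-3p: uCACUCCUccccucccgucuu
The miR-675 arms lie at chr7:142577112-142577133 and chr7:142577078-142577099 (minus strand) in an exon of H19. miR-770-5p is at chr12:109563710-109563731 (plus strand) in Meg3, the miR-335 arms are at chr6:30741314-30741336 and chr6:30741354-30741375 (plus strand) in Mest, and miR-483-3p is at chr7:142654932-142654952 (minus strand) in Igf2. The rows of Mir675, Mir770 and Mir1906-1 held 0 counts in the 11 libraries.

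Promoter windows of 300 bases (250 before and 50 after an annotated start) were listed in RefSeq for 8 of the 10 genes, with 15 windows in all. For genes with several windows, 1 is shown (the first of 2 for Meg3, the second of 3 for Mest). The 120 bases before the start are shown for the promoters of 4 genes that were higher after MI in both genotypes, with each CpG, the site of DNA methylation, in capitals:
Meg3: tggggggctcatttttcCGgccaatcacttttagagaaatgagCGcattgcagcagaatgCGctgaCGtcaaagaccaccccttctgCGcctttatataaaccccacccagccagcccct
Mest: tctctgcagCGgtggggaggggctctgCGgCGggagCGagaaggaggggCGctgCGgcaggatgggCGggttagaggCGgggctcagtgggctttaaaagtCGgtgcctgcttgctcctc
Peg3: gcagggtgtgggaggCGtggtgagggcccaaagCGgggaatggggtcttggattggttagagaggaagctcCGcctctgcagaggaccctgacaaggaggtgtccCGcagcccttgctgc
Plagl1: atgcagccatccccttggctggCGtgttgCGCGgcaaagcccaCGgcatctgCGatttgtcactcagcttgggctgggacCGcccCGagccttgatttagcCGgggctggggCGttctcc
These stretches are chr12:109540876-109540995 (plus strand), chr6:30737930-30738049 (plus), chr7:6730420-6730539 (minus) and chr10:13090712-13090831 (plus) of GRCm38.p6. The full windows held 13, 17, 13 and 26 CpGs, against a median of 7 and quartiles of 3 and 20 over all 32851 windows. The windows not shown held 1 CpG in Meg3, and 8 and 17 in Mest. The most CpGs were in the first of 2 Grb10 windows, with 45, where 98.1% of all windows hold fewer. TATAAA, read on both strands, was in the Meg3 window alone of the 15 and in 13.6% of all windows. GGGGCCCC, a palindrome bound by the PLAGL1 protein and so the same on both strands, was in the Peg3 window alone of the 15 and in 1.1% of all windows. A match is a description of the letters, and methylation was not measured.

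**Figure D1:**
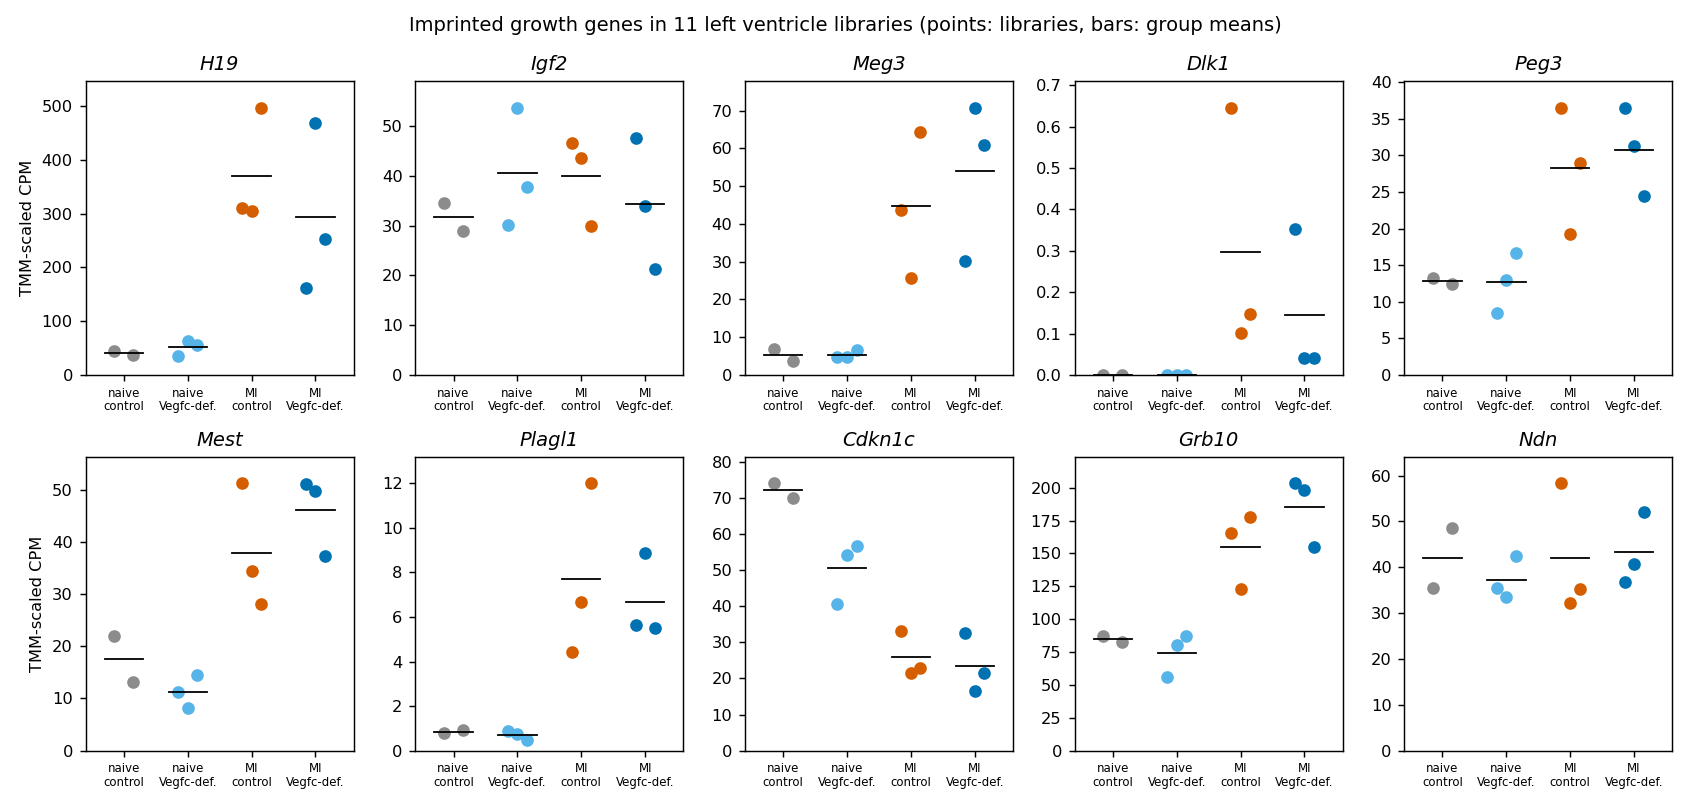
TMM-scaled CPM (vertical axes, each from 0) of the 10 genes in every library of the 4 groups, with points for libraries and bars for group means. H19, Meg3 and Plagl1 stand several-fold higher in all 6 MI libraries, Cdkn1c is lower in all 6, and the groups of Igf2 and Ndn overlap.

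H19 is a maternally expressed long noncoding RNA (ENSMUSG00000000031, minus strand of chromosome 7). It was at 45 and 37.3 CPM in naive controls M44 and M45 and at 311, 304.1 and 496.8 CPM in MI controls M006, M38 and M40. All MI control libraries lay above both naive ones, with a fold of 9 (log2 fold change 3.17, SE 0.47). In Vegfc-deficient hearts it went from 35.3, 63.2 and 55.2 CPM in M149, M150 and M34 to 161.7, 467.7 and 252.9 CPM in M35, M900 and M913. Again no MI library overlapped the naive ones (log2 fold change 2.52, SE 0.39), and the value was 2.31 without M149 and 2.01 without M900. In bulk tissue, fewer cells of a type and less RNA per cell cannot be told apart, which holds for every level given here.

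Igf2 encodes the fetal growth factor IGF-II and lies 72.6 kb from H19 on the same strand, under a shared control region and shared enhancers. It was at 34.5 and 29 CPM in naive controls and 46.7, 43.6 and 29.9 CPM in MI controls, so the groups overlapped. In Vegfc-deficient hearts it was at 30.2, 53.7 and 37.8 CPM before and 47.7, 33.9 and 21.2 CPM after MI, again with overlap. Its log2 fold changes of 0.33 (SE 0.34, 95% interval -0.42 to 1.09) and -0.24 (SE 0.30, -0.91 to 0.42) leave room for a moderate change either way. With library totals in place of TMM scaling, the second turned to 0.27. Of its 5723 exon bases, 3596 are shared with Gm49394, a gene model on the same strand that has no row here.

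The ratio of the pair describes the same levels, on which the members were selected. H19 counts per Igf2 count, a ratio that needs no scaling between libraries, were 1.3 and 1.29 in naive controls and 1.17, 1.18 and 1.46 in naive Vegfc-deficient hearts. They were 6.66, 6.97 and 16.6 in MI controls and 3.39, 13.8 and 11.9 in MI Vegfc-deficient hearts. The 5 naive ratios lay close together, and the lowest MI ratio (M35) was above the highest naive one (M34). Among MI libraries the ratio was highest in M40, which had the highest H19 (496.8 CPM) and an Igf2 of 29.9 CPM, and lowest in M35, which had the lowest H19 and the highest Igf2 of the 6. The ratio compares reads per gene, not RNA molecules, and it does not show that Igf2 itself stayed constant.

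**Figure D2:**
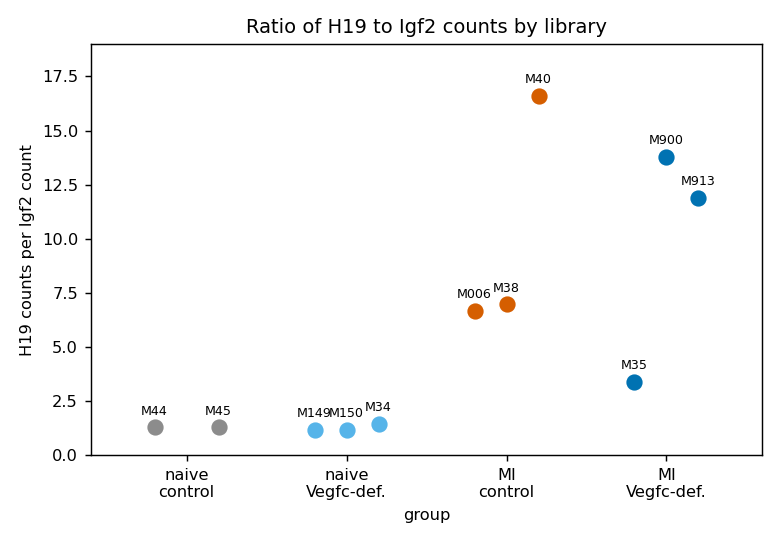
H19 counts divided by Igf2 counts (vertical axis, from 0) in each library, by group. The 5 naive libraries lie between 1.17 and 1.46, and the 6 MI libraries spread from 3.39 (M35) to 16.6 (M40).

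Meg3, a maternally expressed long noncoding RNA (ENSMUSG00000021268, plus strand of chromosome 12), was higher after MI in both genotypes. It was at 6.78 and 3.62 CPM in naive controls and 43.8, 25.8 and 64.4 CPM in MI controls. In Vegfc-deficient hearts it was at 4.61, 4.72 and 6.67 CPM before MI and 30.2, 70.8 and 60.9 CPM after. Every MI library was above every naive one in both genotypes, with folds of 8.57 (log2 3.10, SE 0.50) and 10.1 (log2 3.33, SE 0.43). The first depends on which naive control is used, at log2 2.72 without M45 and 3.62 without M44. Of its 18089 exon bases, 1228 overlap Gm26906 on the other strand, and the strand setting of the counting is not given in the sources used here.

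Dlk1, the paternally expressed neighbour of Meg3 at a distance of 77.7 kb, encodes a transmembrane protein with EGF repeats that holds back adipocyte differentiation. It had 0 counts in all 5 naive libraries, 12, 3 and 4 counts in MI controls and 6, 1 and 1 counts in MI Vegfc-deficient hearts. Over each MI group this is 0.252 and 0.123 CPM, at least 1.87-fold and at least 1.26-fold above the floor of 3 counts over the naive group of the same genotype (0.135 and 0.0975 CPM). Each bound rests on 1 library. Without M006 the MI controls held 7 counts (0.123 CPM) and without M35 the MI Vegfc-deficient hearts held 2 (0.0417 CPM), both under the naive floor. The genes of 1 domain thus stood at very different depths, Meg3 with 514 to 1757 counts in the MI libraries and Dlk1 with 1 to 12.

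Plagl1 and Peg3 are paternally expressed zinc finger transcription factors, and the first regulates several other imprinted genes, among them H19 and Igf2. Plagl1 was at 0.802 and 0.906 CPM in naive controls and 4.41, 6.69 and 12 CPM in MI controls. It was at 0.882, 0.726 and 0.488 CPM in naive and 5.64, 8.89 and 5.51 CPM in MI Vegfc-deficient hearts. Its groups did not overlap in either genotype (log2 fold changes 3.16, SE 0.51, and 3.26, SE 0.45), although each naive value rests on only 6 to 10 counts. Peg3 was at 13.3 and 12.4 CPM in naive and 36.4, 19.2 and 29 CPM in MI controls, and at 8.43, 12.9 and 16.6 CPM in naive and 36.5, 31.3 and 24.5 CPM in MI Vegfc-deficient hearts. It was higher after MI in both genotypes without overlap (folds of 2.19 and 2.42, log2 fold changes 1.13, SE 0.32, and 1.28, SE 0.28), and the second was 1.05 without M149.

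Mest encodes a protein of the alpha/beta hydrolase fold, is paternally expressed and marks growing mesenchyme and fat. It was at 22 and 13.2 CPM in naive and 51.2, 34.4 and 28 CPM in MI controls, where the lowest MI library (M40) was close to the highest naive one (M44). In Vegfc-deficient hearts the groups were farther apart, at 11.2, 8.11 and 14.5 CPM before and 51.1, 49.7 and 37.3 CPM after MI. Its log2 fold changes were 1.10 (SE 0.33) and 2.02 (SE 0.29). The first was 0.78 without M45, the lower naive control. Mest shares 912 of its 3945 exon bases with Copg2 on the opposite strand, which had 10022 counts in all libraries. How reads from the overlap were counted is not known, since the strand setting is not given. Copg2 itself had log2 fold changes of -0.31 (adjusted p = 0.0776) and -0.11 (adjusted p = 0.445; quasi-likelihood F test of edgeR, adjusted by Benjamini-Hochberg over the whole table).

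Grb10 encodes an adaptor that binds the insulin and IGF-1 receptors and damps their signal. It was at 87.4 and 82.7 CPM in naive and 165.3, 122.9 and 177.4 CPM in MI controls, and at 56.2, 80.2 and 87.1 CPM in naive and 203.2, 198.4 and 155.2 CPM in MI Vegfc-deficient hearts. No MI library overlapped a naive one, and the standard errors were the smallest of the members tested (log2 fold changes 0.87, SE 0.23, and 1.32, SE 0.20). Without M149, the lowest of the naive libraries, the second was 1.15.

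Cdkn1c, the maternally expressed inhibitor of cyclin-dependent kinases p57, was the one member that was lower after MI. It was at 74.1 and 70.2 CPM in naive and 33.3, 21.6 and 22.8 CPM in MI controls. In Vegfc-deficient hearts it was at 40.7, 54.2 and 56.7 CPM before and 32.6, 16.4 and 21.5 CPM after MI. The groups did not overlap in either genotype (log2 fold changes -1.48, SE 0.28, and -1.11, SE 0.26). With library totals in place of TMM scaling, they were -1.03 and -0.60, while the median of all genes went from 0.128 to 0.574 and from 0.097 to 0.593. Ndn, which encodes necdin, a paternally expressed protein of the MAGE family that restrains proliferation, was at 35.4 and 48.6 CPM in naive and 58.3, 32.3 and 35.2 CPM in MI controls. In Vegfc-deficient hearts it was at 35.5, 33.6 and 42.4 CPM before and 36.9, 40.8 and 52 CPM after MI. The Ndn groups overlapped in both genotypes, with log2 fold changes of -0.01 (95% interval -0.59 to 0.58) and 0.22 (-0.31 to 0.74), which became 0.45 and 0.71 with library totals.

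**Figure D3:**
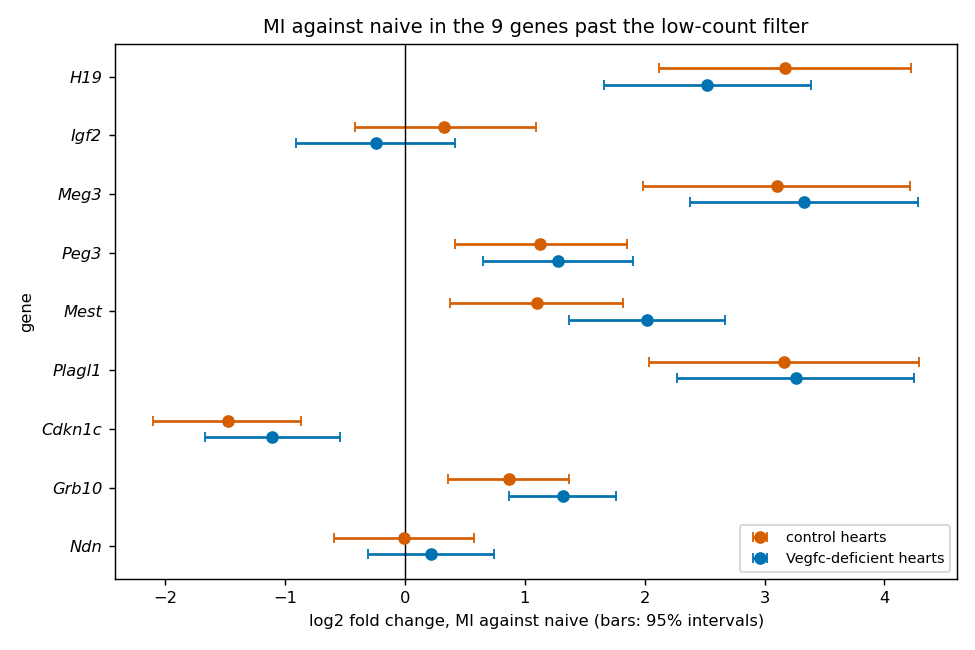
Log2 fold change of MI against naive (horizontal axis) in the 9 genes past the low-count filter, with 95% intervals, for control and Vegfc-deficient hearts. H19, Meg3 and Plagl1 lie between 2.52 and 3.33, Peg3, Mest and Grb10 between 0.87 and 2.02, Cdkn1c below 0, and the intervals of Igf2 and Ndn span 0.

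In the fit across all genes, 6 of the 9 members were higher and 1 was lower after MI in control hearts at an adjusted p under 0.05, where 26.3% of all genes were higher and 24.1% lower. In Vegfc-deficient hearts the counts were again 6 higher and 1 lower, where 30.0% of all genes were higher and 27.7% lower. Since the members were selected on these levels, nothing is read from the counts. The count of 7 in control hearts rests on a naive group of 2 libraries. The count was 4 without M45 (Peg3, Mest and Grb10 were lost), 5 without M44 (Peg3 and Grb10 were lost) and 6 without M006 (Mest was lost). Without M149, the MI log2 fold changes in Vegfc-deficient hearts were 2.31 for H19, -0.42 for Igf2, 3.23 for Meg3, 1.05 for Peg3, 2.01 for Mest, 3.48 for Plagl1, -1.24 for Cdkn1c, 1.15 for Grb10 and 0.18 for Ndn. There, leaving out any library, M149 included, kept all 7, and library totals in place of TMM scaling gave 7 higher and 0 lower (Cdkn1c was lost and Ndn was gained).

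Per kb of annotated exon, the order of the levels changed with MI. The length used is the union of all annotated exons of a gene, from 2039 bases for Cdkn1c to 18089 for Meg3. It is not the length of the transcripts present, so ranks between genes are approximate. In naive controls Cdkn1c was highest at 35.4 ± 1.35 CPM per kb (SD, n = 2), followed by H19 at 16.7 ± 2.22, Ndn at 11.4 ± 2.54, Grb10 at 9.36 ± 0.364, Igf2 at 5.55 ± 0.682 and Mest at 4.47 ± 1.58. Ndn and Grb10, and Igf2 and Mest, were neighbours whose libraries overlapped. In MI controls H19 was highest at 150.7 ± 44.5 CPM per kb (SD, n = 3), far above Grb10 at 17.1 ± 3.14, and the run of Grb10, Cdkn1c, Ndn, Mest and Igf2 down to 7 ± 1.57 overlapped from neighbour to neighbour. Meg3, Peg3 and Plagl1 formed a lower run between 2.47 and 0.983 CPM per kb whose neighbours also overlapped, and Dlk1 was lowest in all 4 groups. The Vegfc-deficient hearts had the same gene at the top in each condition, Cdkn1c before MI (24.8 ± 4.23 CPM per kb, n = 3, overlapping with H19) and H19 after it (119.6 ± 63.9).

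Between the genotypes the members were set side by side in the same way. In MI hearts the log2 fold changes of Vegfc-deficient against control ran from -0.33 for H19 (95% interval -1.15 to 0.48) to 0.28 for Mest (-0.33 to 0.89), and no member had groups that did not overlap, where 12.1% of all genes did. In naive hearts they ran from -0.64 for Mest (-1.35 to 0.08) to 0.35 for Igf2 (-0.41 to 1.11). Of the 9 members 1, Cdkn1c, had naive groups that did not overlap (70.2 and 74.1 CPM in controls, 40.7 to 56.7 CPM in Vegfc-deficient hearts), where 22.4% of all genes did, and its log2 fold change was -0.51 (-1.13 to 0.11), or -0.38 without M149. The other members without M149 were between -0.63 (Mest) and 0.53 (Igf2), and Peg3 went from -0.02 to 0.21. In the quasi-likelihood F test of edgeR, 0 of the 9 had an adjusted p under 0.05 in MI hearts (0% of all genes), in naive hearts (0%) or for the difference of the MI effect between the genotypes (0%), with 0 at an unadjusted p under 0.05 in each and 0 by the DESeq2 Wald test. Over all 14779 genes 1173, 499 and 1226 had an unadjusted p under 0.05 in these 3 comparisons, and the DESeq2 Wald test called 62, 14 and 58. The intervals are wide, and these values do not show that the genotypes are alike.

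The member whose MI effect differed most between genotypes was Mest, with a difference of 0.92 on the log2 scale (95% interval -0.02 to 1.86), larger in Vegfc-deficient hearts. It rests on the naive controls, at 0.51 without M44 and 1.25 without M45. For H19 the difference was -0.65 (-1.88 to 0.59), at -1.11 without M900 and -0.35 without M35. The values of Meg3 (0.23), Ndn (0.22), Peg3 (0.14) and Plagl1 (0.10) turned sign when single libraries were left out.

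Within the 6 MI hearts the members did not share an order of libraries. M006 was the highest for Dlk1, Mest, Cdkn1c and Ndn, M35 for Igf2, Peg3 and Grb10, M40 for H19 and Plagl1, and M900 for Meg3. M38, an MI control, was the lowest of the 6 for Meg3, Peg3, Grb10 and Ndn. Summed CPM of 7 cardiomyocyte markers also varied among the 6, at 9177.9 in M006, 11986.8 in M38 and 2333.7 in M40, and at 23325.1 in M35, 5151.5 in M900 and 9909.2 in M913, against 63013.8 to 89466 in naive hearts. H19 was highest in M40 and M900 and lowest in M35, and the part of this variation in the members' levels was not tested.

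Marker genes moved with MI in the same libraries. At an adjusted p under 0.05 in the same edgeR fit, where 26.3% of all genes rose and 24.1% fell in control and 30.0% and 27.7% in Vegfc-deficient hearts, all 7 cardiomyocyte markers fell, and all 7 markers of activated fibroblasts rose in both genotypes (summed 514.6 to 914.8 CPM in naive and 10294.8 to 18464.8 CPM in MI hearts). Of 6 fibroblast markers 4 rose in control and 5 in Vegfc-deficient hearts (4579 to 6179 against 22388.9 to 37174.3 CPM summed). All 4 proliferation markers rose (29.2 to 44.8 against 105.2 to 267 CPM), as did 3 of 5 macrophage markers (798.8 to 1451.2 against 1287.5 to 2842 CPM) and 3 of 5 epicardial markers (32.5 to 42 against 49.9 to 164.2 CPM) in each genotype. All 4 T cell markers rose in control and 1 in Vegfc-deficient hearts (2.32 to 5.21 against 7.85 to 78.5 CPM). Of 5 mural markers 2 rose and 1 fell in each genotype (2526 to 4094 against 1282.5 to 2198.8 CPM). Of 5 endothelial markers 1 fell in each genotype and 1 rose in Vegfc-deficient hearts (584.6 to 904.9 against 365.5 to 741.3 CPM). Of 4 neutrophil markers 3 were tested and 1 rose, in Vegfc-deficient hearts (19.5 to 103.7 against 32.2 to 329.6 CPM). Adipocyte markers had 2 of 4 tested, and 0 passed (0.121 to 1.67 against 0.545 to 9.06 CPM). Neuronal and Schwann cell markers had 4 of 5 tested, and 1 rose in control and 2 in Vegfc-deficient hearts (17.8 to 29.2 against 26.8 to 64.2 CPM). Skeletal muscle markers had only 2 of 8 tested, and 1 rose and 1 fell in each genotype (1567.2 to 3253.2 against 40.6 to 543.4 CPM). The sums hold all listed markers, tested or not. A sum weighs its markers by their level, so it can move against most calls, as for the mural markers, which were all tested. Of all these markers 1, of skeletal muscle, was at 0 in every library. The part of these shifts in the levels of the imprinted genes was not tested.

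**Figure D4:**
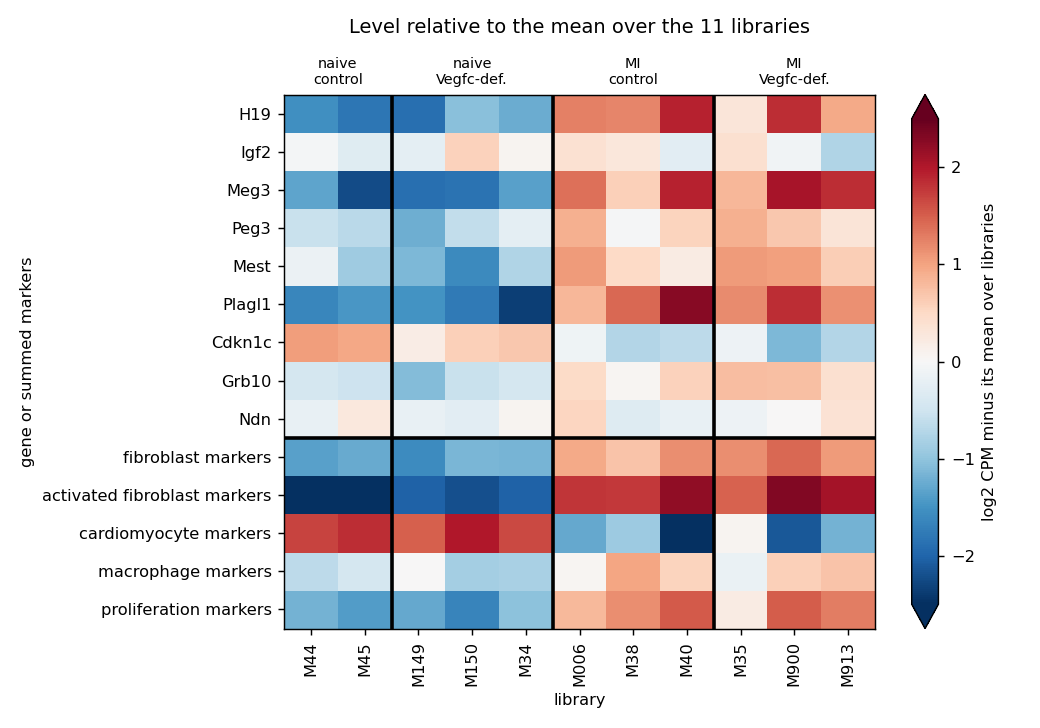
Log2 CPM of the 9 genes past the filter (rows above the line) and of summed marker lists (below it), each minus its mean over the 11 libraries (colour, clipped at 2.5 in both directions), with libraries in columns by group. H19, Meg3 and Plagl1 turn from blue in naive to red in MI libraries, and Peg3, Mest and Grb10 do so less strongly. Fibroblast and proliferation markers also turn red. Cdkn1c and the cardiomyocyte markers are both lower in MI libraries. Their order among the MI libraries is alike in part, with M35 high and M900 low in both. It differs in part, with M40 the lowest for the markers only. A relation between them was not tested. Igf2 and Ndn stay pale.

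For each member the genes with the most similar profile were found over the 11 libraries, by the root mean square (RMS) difference of log2 CPM centred on each gene's mean. H19 was nearest to Csrp2 (RMS 0.24), Ada (0.26) and Adamtsl3 (0.27), where the median over all genes was 1.42. The smallest distances of a search over all genes must lie far under that median. The distances also use the levels on which the members were selected, so nothing is read from them. Meg3 was nearest to Prc1 (0.19), Sertad4 (0.25) and Col27a1 (0.27), and Plagl1 to Rxfp3 (0.33), Enpp1 (0.34) and Actn1 (0.35). Peg3 was nearest to Fat4 (0.16), the member Grb10 (0.16) and Osr1 (0.17). Grb10 was nearest to Ift80 (0.10), Tctn2 (0.10) and Osmr (0.12), and Mest to Zfr2 (0.23), Fam20a (0.26) and Pcdhb14 (0.28). Cdkn1c was nearest to Tmem204, Tppp and Sept4 (0.17 to 0.18). Igf2 (Clec2d, Zfp85 and Ly96, 0.22 to 0.23) and Ndn (Fbxo36, Abhd14b and Pxdc1, 0.14 to 0.17) had flat profiles, so that small distances say little there.

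Of 39 other imprinted genes on a list, 38 had a row and 29 passed the filter. In control hearts 7 rose and 9 fell after MI (adjusted p under 0.05 in the edgeR fit, as in all lists below), where 26.3% of all genes rose and 24.1% fell, with a median log2 fold change of -0.14 where that of all genes was 0.128. In Vegfc-deficient hearts 7 rose and 8 fell, where 30.0% of all genes rose and 27.7% fell, with a median of -0.11 where that of all genes was 0.097. The split depends on the scaling, at 10 higher and 4 lower in control hearts and 12 and 5 in Vegfc-deficient hearts with library totals. Without M44 or without M45, 2 rose and 6 fell in control hearts, 8 of the 16 calls. Without M149, 7 rose and 6 fell in Vegfc-deficient hearts (Blcap, Ube3a and Peg12 were lost and Igf2r was gained).

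Around Meg3, the noncoding Mirg and the coding Dio3 rose in both genotypes. Mirg, a microRNA host transcript downstream of Meg3, rose from 1.6 and 1.72 CPM in naive to 4.2, 3.58 and 6.38 CPM in MI controls (log2 fold change 1.50, adjusted p = 0.0144) and by 1.90 on the log2 scale in Vegfc-deficient hearts (adjusted p = 0.00187). Dio3, the deiodinase that inactivates thyroid hormone, at the other end of the domain, rose from 0.357 and 0.543 to 1.51, 2.4 and 3.26 CPM (log2 fold change 2.40, adjusted p = 0.003) and by 3.68 in Vegfc-deficient hearts (adjusted p = 0.000178). Its naive Vegfc-deficient values, 0.196, 0.121 and 0.244 CPM in M149, M150 and M34, were at or under the floor of 3 counts (0.294, 0.363 and 0.244 CPM). The size of that Dio3 fold change is therefore uncertain. In control hearts the Mirg call was lost without M44 and without M45. Rtl1 had 48 counts in all libraries and was not tested, with 0 to 0.163 CPM in naive and 0.21 to 0.538 CPM in MI hearts. Rian was not analysed here.

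Around Cdkn1c, Kcnq1, a potassium channel gene, fell from 27.7 and 23.2 CPM to 5.43, 10.5 and 3.7 CPM in control hearts (log2 fold change -1.95, adjusted p = 0.00463) and fell by 1.91 on the log2 scale in Vegfc-deficient hearts (adjusted p = 0.00261). Kcnq1ot1, the noncoding RNA of the domain's control region, did not pass the test, at log2 fold changes of 0.39 (adjusted p = 0.464) and 0.03 (adjusted p = 0.948). Slc22a18, a transporter gene of the domain, did not pass it either (0.44, adjusted p = 0.497, and -1.01, adjusted p = 0.0626). Phlda2 and Ascl2 had 17 and 31 counts in all libraries and were not tested.

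Among other domains Snrpn, the paternally expressed splicing factor gene of the domain that also holds Ndn, fell most of the 29. It went from 92.5 and 75.8 CPM to 15, 19.7 and 10.1 CPM in control hearts (log2 fold change -2.49, adjusted p = 0.000381) and fell by 2.95 on the log2 scale in Vegfc-deficient hearts (adjusted p = 6.88e-05). Mcts2 (-1.39 and -1.77; adjusted p = 0.00343 and 0.000433) and Commd1 (-1.07 and -1.65; adjusted p = 0.00175 and 8.56e-05) fell in both genotypes. Peg10, a retrotransposon-derived placental gene, rose in both (log2 fold changes 2.79 and 2.28, adjusted p = 0.00654 and 0.00509), from at most 1.09 CPM in naive to at least 1.47 CPM in MI libraries. In control hearts the Peg10 call was lost without M44 and without M45. Ddc fell in Vegfc-deficient hearts (log2 fold change -2.09, adjusted p = 0.0173), a call lost without M150, M900 or M913, and was at -0.87 in control hearts (adjusted p = 0.306). Nnat was past the threshold in control hearts (adjusted p = 0.0342), on values of 1.18, 0.676 and 9.24 CPM after MI, and lost it without M40, the highest, and without M44, M45 or M913. In Vegfc-deficient hearts it was at 2.27 (adjusted p = 0.132).

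**Figure D5:**
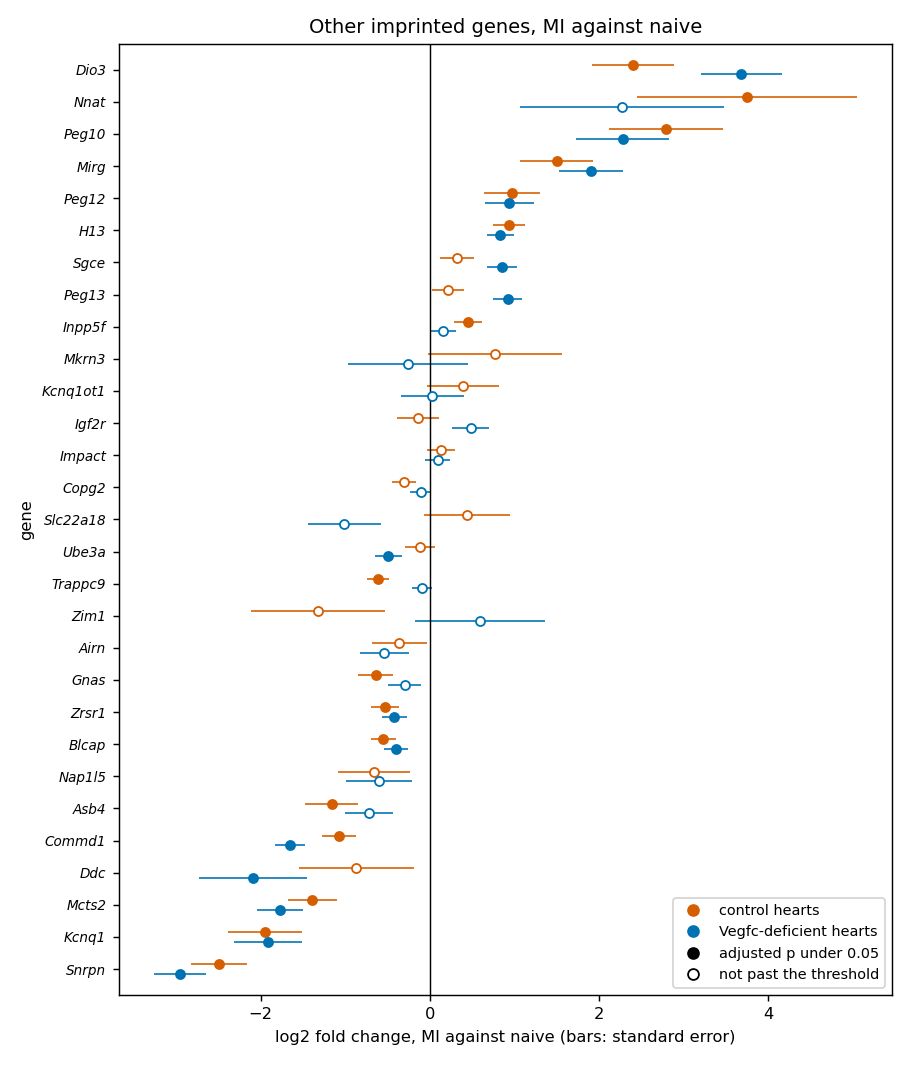
Log2 fold change of MI against naive (horizontal axis, bars are standard errors) of the 29 other imprinted genes past the filter, in control and Vegfc-deficient hearts, filled where the adjusted p was under 0.05. Dio3, Peg10 and Mirg are filled on the right in both genotypes, and Snrpn, Kcnq1, Mcts2 and Commd1 on the left.

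IGF-II acts through the IGF-1 and insulin receptors and is cleared by Igf2r, itself imprinted. Of 21 genes of IGF signalling 18 passed the filter, and 8 rose and 2 fell in control hearts and 13 rose and 1 fell in Vegfc-deficient hearts, where 26.3% and 24.1% of all genes did so in control and 30.0% and 27.7% in Vegfc-deficient hearts. The median log2 fold changes were 0.58 and 1.14, and those of all genes 0.128 and 0.097. With library totals the control split was 11 and 1, and without M45 it was 6 and 0. Without M149 the Vegfc-deficient split was 11 and 2 (Irs1, Stc1 and Stc2 were lost, Igf2r and Insr gained). Igf1, the ligand that shares these receptors, rose from 76.1 and 91.9 CPM to 280.9, 224 and 264.8 CPM in control hearts (log2 fold change 1.61, adjusted p = 0.000809) and by 1.09 in Vegfc-deficient hearts (adjusted p = 0.0018), while Igf2 overlapped as given above. Igf1r was at log2 fold changes of 0.48 (adjusted p = 0.0779) and 0.80 (adjusted p = 0.00436), Insr at -0.78 (adjusted p = 0.0144) and -0.50 (adjusted p = 0.053), and Igf2r at -0.14 (adjusted p = 0.665) and 0.48 (adjusted p = 0.0876). The Insr call in control hearts was lost without M45.

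Other genes of the list bind or release IGFs. Pappa, a protease that frees IGF from its binding proteins, rose from 0.713 and 1.81 CPM to 6.78, 7.2 and 16.4 CPM in control hearts (adjusted p = 0.00169) and by 3.08 on the log2 scale in Vegfc-deficient hearts (adjusted p = 0.000428). The related Pappa2 had 0 counts in the 3 naive Vegfc-deficient libraries and was at 0.822, 2.43 and 3.15 CPM after MI (adjusted p = 0.000809). That call was lost with a filter of mean CPM of at least 1. In control hearts Pappa2 did not pass the threshold (log2 fold change 2.28, adjusted p = 0.0723). Igfbp2, a binding protein, was at 0 to 0.651 CPM in naive and 1.7 to 8.8 CPM in MI hearts (adjusted p = 0.00168 in control and 0.00245 in Vegfc-deficient hearts). Igfbp3 (1.51 and 1.47; adjusted p = 0.000428 and 0.000117) and Igfbp4 (1.54 and 1.51; adjusted p = 0.00086 and 0.000252) rose in both genotypes. Igfbp5 rose by 1.96 in Vegfc-deficient hearts (adjusted p = 4.77e-05) and was at 0.24 in control hearts (adjusted p = 0.334), with a difference between them of 1.71 (adjusted p = 0.383). Igfals, the acid-labile subunit that keeps IGF in the circulation, fell from 2.84 to 7.06 CPM in naive to 0 to 1.29 CPM in MI hearts (adjusted p = 0.0108 and 0.019), calls lost without M45 in control hearts and without M150, M900 or M913 in Vegfc-deficient hearts.

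All 14 genes that set, keep or erase methylation at imprinted regions passed the filter, and 8 rose and 0 fell in each genotype, where 26.3% and 24.1% of all genes did so in control and 30.0% and 27.7% in Vegfc-deficient hearts. The median log2 fold changes were 0.72 and 0.68, and those of all genes 0.128 and 0.097. Uhrf1, which brings the maintenance methyltransferase to replicated DNA, rose by 2.69 in control hearts (adjusted p = 0.001) and 1.95 in Vegfc-deficient hearts (adjusted p = 0.0013). Dnmt1, that methyltransferase, rose by 0.87 (adjusted p = 0.0387) and 1.25 (adjusted p = 0.00348), and Zfp57, the zinc finger protein that protects imprinted methylation, by 2.23 (adjusted p = 0.00205) and 1.90 (adjusted p = 0.00133). Tet2 and Tet3, which oxidise methylated cytosine, rose by 1.21 and 1.01 in control hearts (adjusted p = 0.00467 and 0.0409) and by 0.75 and 1.42 in Vegfc-deficient hearts (adjusted p = 0.0193 and 0.00392). Dnmt3b, a methyltransferase that sets new methylation, rose in control hearts (1.24, adjusted p = 0.0196) and was at 0.61 in Vegfc-deficient hearts (adjusted p = 0.13). Trim28, the partner of Zfp57, rose in Vegfc-deficient hearts (42.6 to 55.4 CPM before and 89.9 to 111.8 CPM after MI, adjusted p = 0.000317) and was at 0.43 in control hearts (adjusted p = 0.0519). The control count of 8 is fragile, at 3 without M44, 4 without M45 and 5 without M900 or M913. Dnmt1, Tet3 and Dnmt3b were among those lost without M44 and without M45. In Vegfc-deficient hearts Tet2 was lost without M150, M34 or M35, and 9 rose without M149 (Dnmt3a was gained). Another of the 8 there, Dppa3 (adjusted p = 0.0294), had groups that overlapped and was lost without M150, M34, M900 or M913.

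Between the genotypes, the edgeR fit placed 0 genes of these 3 lists past the threshold in MI hearts, in naive hearts or for the difference of the MI effect. At an unadjusted p under 0.05 there were 2, 1 and 2 of the other imprinted genes in the 3 comparisons, 2, 2 and 2 of the IGF genes, and 0, 1 and 1 of the imprint maintenance genes, where 1173, 499 and 1226 of all 14779 genes did. The DESeq2 Wald test called Igfbp5 in MI hearts and for the difference of the MI effect, and no other gene of the 3 lists, where it called 62 and 58 of all genes.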

How the data were processed

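Left ventricular mRNA of 11 mice was sequenced from TruSeq Stranded libraries, 1 per mouse. The deposited values are counts of reads on Ensembl genes that the authors left unnormalized. The submitters' processing notes name cutadapt 1.13, STAR, HTSeq 0.6.1p1, DESeq2 1.14.1 and the build mm10. The annotation release and the strand setting of the counting are not given in the sources used here. Symbols and exon lengths came from GENCODE M21 (GRCm38, the same build as mm10), which matched 24942 of the 25006 IDs.

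Counts were tested with the quasi-likelihood F test of edgeR 4.0.16 (R 4.3.3) in 1 fit of all 11 libraries with a coefficient per group, after filterByExpr and TMM scaling, with Benjamini-Hochberg adjustment over 14779 genes and a threshold of 0.05. The standard error is the log2 fold change divided by the square root of F. DESeq2 1.42.0, other filters and scalings, and leaving out each library were alternatives. The test was tried on simulated counts first. The p-values measure the spread between mice. Replicate libraries of a group differed by more than counting noise, so none was counted as a duplicate.

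The members, the gene lists and the tests were chosen with earlier results of these data known. Genes are named by a rule: the members; in each list and MI comparison up to 6 genes with the largest log2 fold change past the threshold whose groups do not overlap; a fixed set of receptors and neighbours; and the 3 nearest profiles. Mcts2, Commd1 and Copg2 were named after their values were seen, as were genes whose calls were lost or gained under an alternative. Slc22a18 and Ascl2 are also named outside the rule. Genotype and naive or MI state came from the labels.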

Additional observations from a re-analysis of the deposited data

How the results depend on the processing

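Counts of genes past the threshold were recomputed with DESeq2 size factors, the DESeq2 Wald test, other filters on low counts, a fit of only the groups compared, an adjusted p under 0.01, each library left out in turn and, chosen after seeing the data, library totals in place of TMM factors. For MI against naive in control hearts, leaving out single libraries gave 4 to 7 of the 9 members, 8 to 16 of the other imprinted genes, 6 to 12 of the IGF genes and 3 to 9 of the imprint maintenance genes. Leaving out M44 or M45 leaves 1 naive control library, which is then assumed to vary like the other groups, and it lowered the count over all genes too, from 7450 to 4880 and 4574. An adjusted p under 0.01 left 8 other imprinted, 6 IGF and 4 imprint maintenance genes. In Vegfc-deficient hearts no alternative moved a count by over 1.5 times. The DESeq2 Wald test gave 1 IGF gene between the genotypes in MI hearts and 1 for the difference of the MI effect, where edgeR gave 0. No member past the threshold in a fit of all libraries changed direction under any alternative. Genes near the floor of 0.101 to 0.363 CPM, such as Dlk1, are limited by depth. No paired analysis was possible because the mouse numbers are not shared between groups.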
